A study of Mus musculus with 28 samples.

Results

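The ovaries of mice that fed freely (ad libitum, AL) were compared between 24 and 16 months of age, late in the life of the organ. The comparison takes each array whose title names ovary, the AL diet and either of these ages, which gives 4 of the 14 ovary arrays and of the 28 arrays in the series. The study followed mouse testis and ovary from 1 to 24 months on AL or on a calorie-restricted (CR) diet. A mouse ovary holds a stock of oocytes that is not renewed, each enclosed by granulosa cells in a follicle, and theca and luteal cells around and after the follicle make steroid hormones. As the stock runs out, cycles stop, and the aged organ is known for immune cells, among them macrophages that fuse into giant cells. The comparison asks what differs between the oldest ages sampled.

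All animals were C57BL/6 females, with 1 animal on each array and RNA from the whole ovary. The ovary RNA carried Cy3, and RNA pooled from mouse cell lines (Universal Mouse Reference) carried Cy5 on the same array. The 16-month AL group was AMC48 on array version 2.1 and AMC131 on version 2.2, and the 24-month AL group was AMC167 on version 2.1 and AMC174 on version 2.2. The labels give an age of 15 months for AMC131 and of 23 months for AMC174, and for AMC48 the source name gives 1 year where the other fields give 16 months. The CR diet was represented at 16 months by AMC27 (version 2.1) and AMC152 (version 2.2) and at 24 months by AMC1 (version 2.1) and AMC25 (version 2.2). The AL arrays of 1 month (AMC196 and AMC244) and 6 months (AMC52 and AMC137) and the CR arrays of 6 months (AMC34 and AMC113) entered the estimate of the error, and those of 6 months also the shift that brings version 2.1 to the level of version 2.2. Every value is a log2 ratio of ovary to reference, so that 1 unit is a 2-fold difference, and a change is the mean at 24 months minus the mean at 16 months.

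The 4 arrays had like signal. Of the probes, 99% were well above background in Cy3 on AMC48, 99.6% on AMC131, 98.3% on AMC167 and 100% on AMC174, and the median signal was 1.33 to 1.44 times the background. Genes that mark steroid-producing cells were far above the reference on each of the 4 arrays. The log2 ratio of Star, which carries cholesterol into mitochondria, was 3.68 on AMC48, 3.54 on AMC131, 3.27 on AMC167 and 3.41 on AMC174, and that of Hsd3b1, a steroid dehydrogenase, was 4.58, 4.43, 4.26 and 4.34 in the same order. Both genes thus have the high level that the labelled tissue should show. Of the oocyte markers, Gdf9 was above the reference on each array, by 1.31 or more, whereas Zp3, a protein of the oocyte coat, stood at 0.32 on AMC48, -0.31 on AMC131, -0.47 on AMC167 and -0.28 on AMC174.

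AMC48 stood apart from the other 3 arrays in the genes of oocytes and follicles. The median log2 ratio over 21 granulosa and follicle genes was 2.66 on AMC48, against 1.21 on AMC131, 1.03 on AMC167 and 1.35 on AMC174, and over the 4 oogenesins, a family expressed in oocytes, it was 1.94 against -0.00, -0.03 and 0.23. AMC131, the other 16-month ovary, was thus at the level of the 24-month ovaries in both lists. Across 35267 genes the SD of the difference between AMC48 and AMC131 was 0.27, and that between the 24-month arrays AMC167 and AMC174 was 0.26. Between ages it was 0.34 for AMC167 against AMC48 and 0.21 for AMC174 against AMC131. These 2 pairs lie within a version, while ovaries of the same age always lie on different versions. Between ages and across versions the SD was 0.28 for AMC167 against AMC131 and 0.30 for AMC174 against AMC48, a little above that between ovaries of the same age. Differences of more than 2-fold numbered 648 in the version 2.1 pair (407 higher and 241 lower at 24 months) and 197 in the version 2.2 pair (156 higher and 41 lower). Across 35185 genes, which are not independent replicates, the changes in the pairs had a Pearson correlation of 0.19 and a Spearman correlation of 0.19. Because of this the results are also given within each version.

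No gene passed the test between the ages. A gene counted as called when its false discovery rate (FDR) did not exceed 0.1 and the groups differed by 1.5-fold or more. By this rule limma called 0 of 35328 genes (0%), and the lowest adjusted p was 0.703. An unadjusted p under 0.05 was found for 1825 genes (5.17%), of which 840 (2.38%) were higher and 985 (2.79%) lower at 24 months. With the error model of the study's methods in place of limma's, the count called was also 0, with 364 genes at an unadjusted p under 0.05. Without AMC131 the count called was 235, with 164 genes higher and 71 lower. It was 15 without AMC48, all of them lower, 8 without AMC174, and 1 without AMC1 or without AMC25, of the CR diet. The large count without AMC131 compares both 24-month ovaries with AMC48 alone.

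Genes that met an unadjusted p under 0.05 together with the fold were more often higher than lower at 24 months with all arrays, but not without AMC48. There were 241 higher genes (0.682% of those tested) and 138 lower genes (0.391%). Leaving out AMC131 raised these counts to 681 and 546, and leaving out AMC174 to 449 and 417, while without AMC48 there were 94 higher and 192 lower. The balance also turned with the scaling: with the Cy3 channel alone it was 292 higher and 347 lower. Of the 241 higher genes, 237 were higher in both array versions and 73 by at least 1.5-fold in both. Of the 138 lower genes, 133 were lower in both versions and 54 by at least 1.5-fold in both. Since these genes were picked on the same arrays, their agreement between versions describes them and is no test. None passed the FDR, and in what follows a gene of the AL comparison is called higher or lower by its measured values, not as changed.

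Among named genes that were well above background, at least 1.5-fold apart with an unadjusted p under 0.05, and different in the same direction in both versions, 177 were higher and 71 lower. The 10 with the largest positive change were mainly genes of immune cells and of fat cells. Spib encodes a transcription factor of B cells. Its log2 ratio was -1.26 on AMC48 and 0.07 on AMC131 at 16 months, and 2.07 on AMC167 and 1.12 on AMC174 at 24 months. The groups did not overlap, and the change was 2.19 with a standard error (SE) of 0.58 and an adjusted p of 0.931. Cd79b, part of the B cell receptor, stood at -3.48 and -1.88 at 16 months (AMC48, then AMC131) and at -0.00 and -1.31 at 24 months (AMC167, then AMC174). Jchain, which joins the units of polymeric immunoglobulins, stood at -6.31 and -3.25 and then at -2.81 and -2.83. In both genes AMC48 was below the other 3 arrays by more than 1 unit. The other 3 were close together for Jchain, while for Cd79b AMC167 stood well above AMC131 and AMC174. The change of Cd79b was 3.48 in the version 2.1 pair and 0.57 in the version 2.2 pair, and that of Jchain 3.50 and 0.42. The gene 2010309G21Rik followed the same order, with -4.13 and -2.07 before -0.82 and -1.37.

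Ccl5, a chemokine that draws T cells, had log2 ratios of -1.71 and -1.22 at 16 months and of 1.17 and -0.54 at 24 months. Probe Z00030707-1, which the names table lists as gene 8-30, had the largest change of the named genes, 2.53 with an SE of 1.04, from -2.05 and -1.72 to 1.92 and -0.64. For these AMC167 was the array that stood out, above the other 24-month ovary. On leaving out AMC131, 2010309G21Rik, Jchain and Pck1 passed the FDR, each of them against AMC48 alone.

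**Figure D1:**
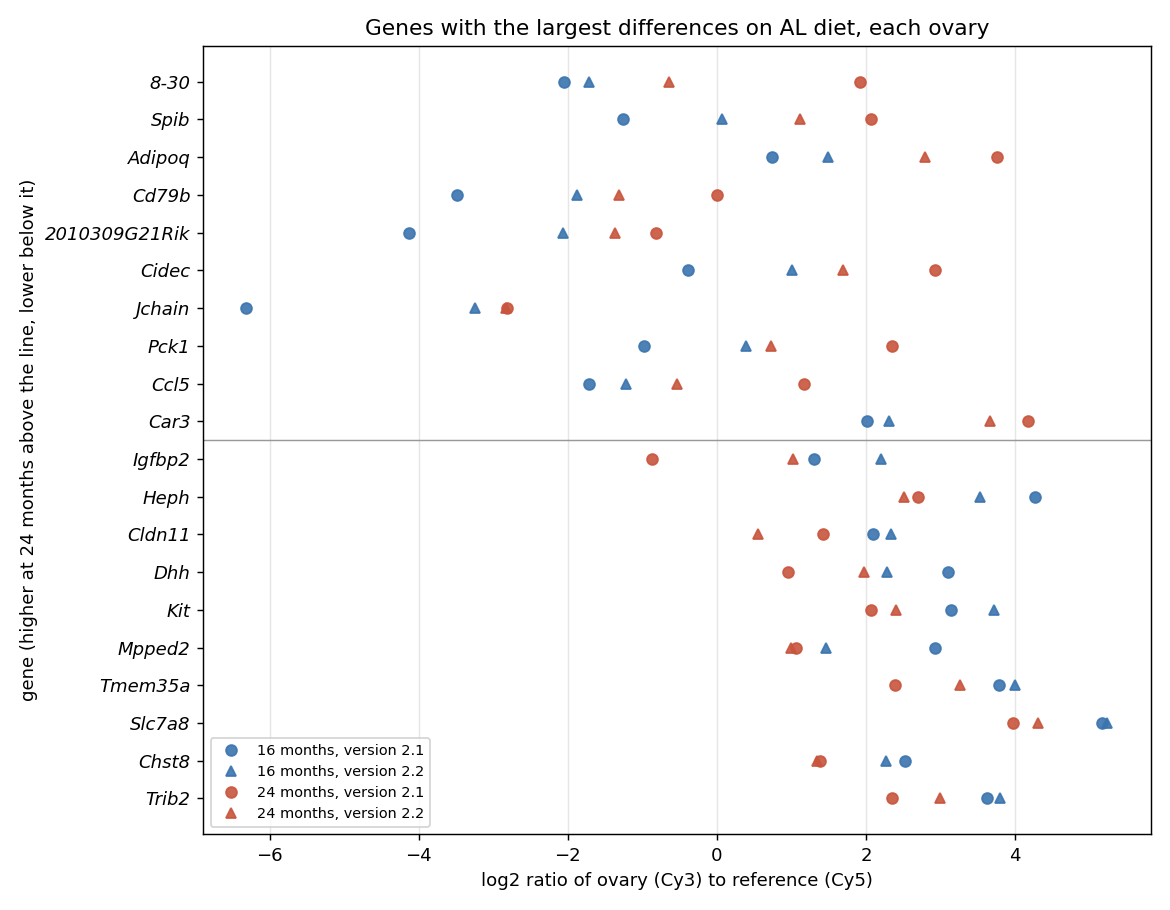
Log2 ratio of ovary to reference (x axis) on each of the 4 AL arrays for the 10 genes with the largest positive and the 10 with the largest negative change by the selection above (y axis). Blue marks are 16 months, red marks 24 months, circles version 2.1 and triangles version 2.2. In none of the 20 genes do the ages overlap, which the selection by both versions favours, and in each of the upper 10 the circles lie farther apart than the triangles, as in Cd79b, with 3.48 against 0.57.

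Adipoq and Cidec of the fat cell list were among the 10, as were Pck1 and Car3, which fat cells also express. Adipoq, the hormone adiponectin of fat cells, had log2 ratios of 0.74 and 1.49 at 16 months and of 3.77 and 2.80 at 24 months, a change of 2.17 (SE 0.57, adjusted p 0.931). Cidec, which coats lipid droplets, stood at -0.39 and 1.01 and then at 2.92 and 1.69. Pck1, an enzyme of glucose and glyceride synthesis, stood at -0.98 and 0.39 and then at 2.36 and 0.73. Car3, a carbonic anhydrase, stood at 2.01 and 2.31 before 4.17 and 3.66. Adipoq and Car3 differed by more than 1 unit in both versions, whereas Pck1 differed by 3.34 in version 2.1 and 0.34 in version 2.2. The 1-month AL ovaries AMC196 and AMC244 had 3.19 and 3.48 for Adipoq and 3.97 and 3.63 for Car3, near the 24-month level. Those of 6 months, AMC137 and AMC52, had 0.52 and 2.41 for Adipoq and 1.38 and 3.20 for Car3. Ovaries of the same age thus also differed by more than 1 unit. Over the whole list of 20 fat cell genes, 16 were higher at 24 months. An unadjusted p under 0.05 was found for 7 of these (35% of the list, beside 2.38% over all genes tested). None of the list was lower at that level. All list members have a symbol, and over the 14230 tested genes with a symbol 3.41% were higher and 2.87% lower at that level. That is the closer background for each list here and below. The median change was 0.74 beside 0.00 over all genes tested. The median log2 ratio of the list was 0.67 on AMC48 and 0.84 on AMC131, and 1.77 on AMC167 and 1.12 on AMC174. Both 24-month ovaries were above both 16-month ovaries, and the median of the changes of the genes was 1.01 in version 2.1 and 0.23 in version 2.2. The brightest gene of the list in Cy3 was Fabp4, a fatty acid carrier. Plin1, another lipid droplet protein, was lower, with a change of -0.47. The median of the list was 0.20 without AMC167. The study's text states that fat around the ovary was taken off at dissection and that sections were examined for it. The part of fat cells in these values was not tested. In RNA from a whole organ, more cells of a type and more RNA in each such cell cannot be told apart, nor can fewer cells and less RNA.

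Lists of genes that mark macrophages, B and plasma cells, and T and NK cells were higher at 24 months almost throughout, but most of the difference lay in the version 2.1 pair. All 29 macrophage and giant-cell genes measured were higher, with a median change of 0.46. Of them 5 had an unadjusted p under 0.05 (17.2%, beside 2.38% over all genes tested). The median log2 ratio of this list was 0.36 on AMC48, 0.73 on AMC131, 1.58 on AMC167 and 0.74 on AMC174. AMC167 was the highest by some way and AMC48 the lowest, and the median change was 0.99 in version 2.1 and -0.01 in version 2.2. Without AMC48 the median was 0.06, and without AMC167 0.30. It was 0.92 without AMC131. The brightest gene was Ctss, a protease of lysosomes, at -0.35 and 1.18 at 16 months and at 2.16 and 1.39 at 24 months. Cd163, a scavenger receptor, had the largest change of the list, from -0.31 and 1.81 to 2.48 and 2.41. Gpnmb and Cd68, which also mark such cells, overlapped between the ages, with changes of 0.64 and 0.50.

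Genes of B and plasma cells were higher in 16 of 19, 8 of them at an unadjusted p under 0.05, a share of 42.1% beside 2.38% over all genes tested. Their median change was 0.51, with 0.95 in version 2.1 and 0.26 in version 2.2, and it was 0.32 without AMC167 and 0.83 without AMC174. The median log2 ratio of the list was -0.76 on AMC48, -0.07 on AMC131, 0.34 on AMC167 and 0.17 on AMC174, so both 24-month ovaries lay above both 16-month ovaries, and AMC48 was lowest by some way. Xbp1, a transcription factor of secretory cells that other tissues express too, was the brightest gene. Not every B cell gene took part: Cd79a, the partner of Cd79b in the receptor, had a change of -0.01 and Fcmr, the receptor for IgM, one of -0.13, and both changed sign with the Cy3 channel alone, Cd79a also with its probe of lowest p and Fcmr with spots marked as outliers kept in the background fit. The Igkc probe, for the constant part of the kappa light chain, stood at 0.31 and 0.33 at 16 months and at 1.20 and 0.65 at 24 months. Its change of 0.60 had an adjusted p of 0.931 and passed the FDR when AMC174 was left out.

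All 18 genes of T and NK cells were higher, 4 at an unadjusted p under 0.05 (22.2%, beside 2.38% over all genes tested). The median change was 0.41 (0.60 in version 2.1 and 0.11 in version 2.2). The array medians were 0.02 on AMC48 and 0.21 on AMC131, and 0.72 on AMC167 and 0.23 on AMC174. AMC174 thus exceeded AMC131 by little, and the median change was 0.11 without AMC167 and 0.62 without AMC174. Cd2, an adhesion receptor, had the largest change (0.97), and among the chains of the T cell receptor complex the change was 0.86 for Cd3g, 0.69 for Cd3d and 0.12 for Cd3e. Nkg7 was the brightest gene of that list. Neutrophil and erythroid genes could be read from only 8 of 12, too few for a statement on the list; 7 of the 8 were higher, with a median change of 0.24 (0.03 without AMC131 and 0.09 without AMC167), and S100a8 stood at -1.86 and -1.96 before -0.95 and -1.27. Of 11 mast cell genes 7 were higher and 4 lower, with a median of 0.08 (0.02 without AMC131), a brightest gene of Cma1 and medians on the arrays of 0.38, 0.09, 0.38 and 0.30. The proteases Cpa3 and Mcpt4 were higher in both versions, by 0.71 and 0.28 in the fit, and Kit, which is also on this list, was lower in both, by 1.19. The part of such cells in the results was not tested.

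Chemokines were mostly higher as well. Of 25 chemokines, 23 were higher, 7 at an unadjusted p under 0.05 (28%, beside 2.38% over all genes tested). The median change was 0.41, with 0.69 in version 2.1 and 0.18 in version 2.2. It was 0.17 without AMC48, 0.23 without AMC167 and 0.67 without AMC131. Ccl8, which draws monocytes, stood at 0.74 and 1.82 at 16 months and at 2.75 and 2.96 at 24 months, so the younger ovaries lay below the older ones in both versions, by 2.00 and 1.13. Ccl11, which draws eosinophils, had the lowest p of the named genes (9.83e-05, adjusted 0.703), at 0.17 and 0.08 before 0.54 and 0.54, a change of 0.41 that is under 1.5-fold. Its size depended on the scaling, with 1.21 in the scanner-normalized and the deposited values and 0.24 with the Cy3 channel alone. Of the 7 MHC class II genes measured, out of 11 written, each was higher. An unadjusted p under 0.05 was found for 5 (71.4%, beside 2.38% over all genes tested), but the share measured is too low for a statement on the list. Cd74, the chain that escorts class II molecules, stood at 0.68 and 1.75 before 2.31 and 2.22. Of 18 interferon response genes 17 were higher, 3 at an unadjusted p under 0.05 (16.7%, beside 2.38% over all genes tested). Their median was 0.36, but 0.15 without AMC48 and 0.17 without AMC167. Of 21 complement genes 16 were higher, 5 at an unadjusted p under 0.05 (23.8%, beside the same 2.38%). Their median was 0.14, but 0.07 without AMC167 and 0.09 without AMC48, and 0.22 without AMC131 or AMC174. C3, the central complement protein, stood at -0.71 and 0.08 before 1.49 and 1.13, a change of 1.63 with an SE of 0.47. Of 60 interleukins and their receptors 36 were higher, 5 at an unadjusted p under 0.05 (8.33%, beside 2.38% over all genes tested). At that level 2 were lower (3.33%, beside 2.79%). The median change was 0.02, but -0.001 without AMC167. Within this list Il16 was higher by 0.85, and Il1r1, the receptor of interleukin 1, had a change of -0.52.

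Among the 10 genes with the largest negative change some were alike in the array versions. Kit, the receptor on oocytes, theca cells and mast cells for the growth factor Kitl, had log2 ratios of 3.14 on AMC48 and 3.72 on AMC131 at 16 months, and of 2.07 on AMC167 and 2.40 on AMC174 at 24 months. The change was -1.19 (SE 0.31, adjusted p 0.931), with -1.07 in version 2.1 and -1.32 in version 2.2, while Kitl itself had a change of 0.25 with overlapping groups. Igfbp2, a binding protein of insulin-like growth factors, stood at 1.30 and 2.204 before -0.87 and 1.02. Its change of -1.68 depended on single arrays, with -0.37 without AMC167 and -2.99 without AMC174. Heph, a ferroxidase, stood at 4.26 and 3.53 before 2.70 and 2.51. In these genes both pairs differed by at least 1 unit. Cldn11, a protein of tight junctions, stood at 2.098 and 2.34 before 1.43 and 0.55. Slc7a8, an amino acid transporter, stood at 5.16 and 5.24 before 3.98 and 4.30. Chst8, a sulfotransferase, stood at 2.53 and 2.28 before 1.38 and 1.34. The replicates of Slc7a8 and Chst8 were close to each other at both ages.

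For Dhh, a hedgehog ligand that granulosa cells send to theca cells, the pairs differed in size: the values were 3.10 and 2.28 before 0.95 and 1.98, a change of -2.15 in version 2.1 and -0.30 in version 2.2. The changes of Mpped2, Tmem35a and Trib2 were -1.16, -1.07 and -1.03, and they too were larger in version 2.1 (-1.86, -1.40 and -1.27) than in version 2.2 (-0.47, -0.73 and -0.79). Nr5a1, the transcription factor that governs steroid-producing and granulosa cells, stood at 1.10 and 1.32 before 0.47 and 0.59. Its change of -0.68 had the small SE of 0.12 and an adjusted p of 0.703, and it was -0.63 in version 2.1 and -0.74 in version 2.2.

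On AL the lists of follicle and oocyte genes rested on AMC48. Of 21 granulosa and follicle genes 17 were lower at 24 months, 3 of them at an unadjusted p under 0.05 (14.3%, beside 2.79% over all genes tested). At that level 1 was higher (4.76%, beside 2.38%). The median change was -0.58. The change was -0.95 in version 2.1 and 0.03 in version 2.2, and without AMC48 the median was 0.12. Inha, the alpha chain of inhibin, was among the genes that were lower in both versions, at 5.51 and 5.08 before 4.47 and 4.57. Inhba, the beta chain, stood at 3.69 on AMC48, 1.56 on AMC131, 1.10 on AMC167 and 1.39 on AMC174, and Cyp19a1, the aromatase, at 2.80, 1.21, 1.54 and 1.35. Both show AMC48 alone above the rest. The receptor Fshr had a change of -0.19, and the brightest gene of the list was Gja1, the gap junction protein.

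Each of the 7 genes of the zona pellucida and oocyte growth factors was lower in the fit, none at an unadjusted p under 0.05. The median change was -0.12, with -0.45 in version 2.1 and 0.12 in version 2.2. Gdf9, a growth factor of the oocyte and the brightest of this list, stood at 4.43 on AMC48 against 1.31 on AMC131, 1.63 on AMC167 and 1.65 on AMC174. Bmp15, its relative, was between -0.06 and -0.20 on all 4, and the list medians were 0.32, -0.13, -0.16 and -0.05. Of 25 oocyte transcription factors and maternal-effect genes 22 were lower, with a median of -0.31 (-0.67 and 0.08 within the versions) and array medians of 0.52, -0.10, -0.02 and -0.00. Obox1 was the brightest. Padi6, needed in early embryos, stood at 1.65, 0.39, 0.05 and 0.79 in that order of arrays, and Bnc1 was 1 of 3 that were higher, by 0.39. The 4 oogenesins had a median of -0.80, with -1.80 in version 2.1 and 0.20 in version 2.2, and Oog1 stood at 2.30, -0.04, -0.03 and 0.26. Without AMC48 the medians of these lists were 0.12, 0.12 and 0.21, above 0 instead of below it. Of 13 germ-line RNA-binding and meiosis genes 9 were lower, with a median of -0.05 that was above 0 with the Cy3 channel alone, array medians of 0.03, -0.05, 0.02 and -0.11, and Rec8 as the brightest gene. The part of the number of follicles in these values was not tested.

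**Figure D2:**
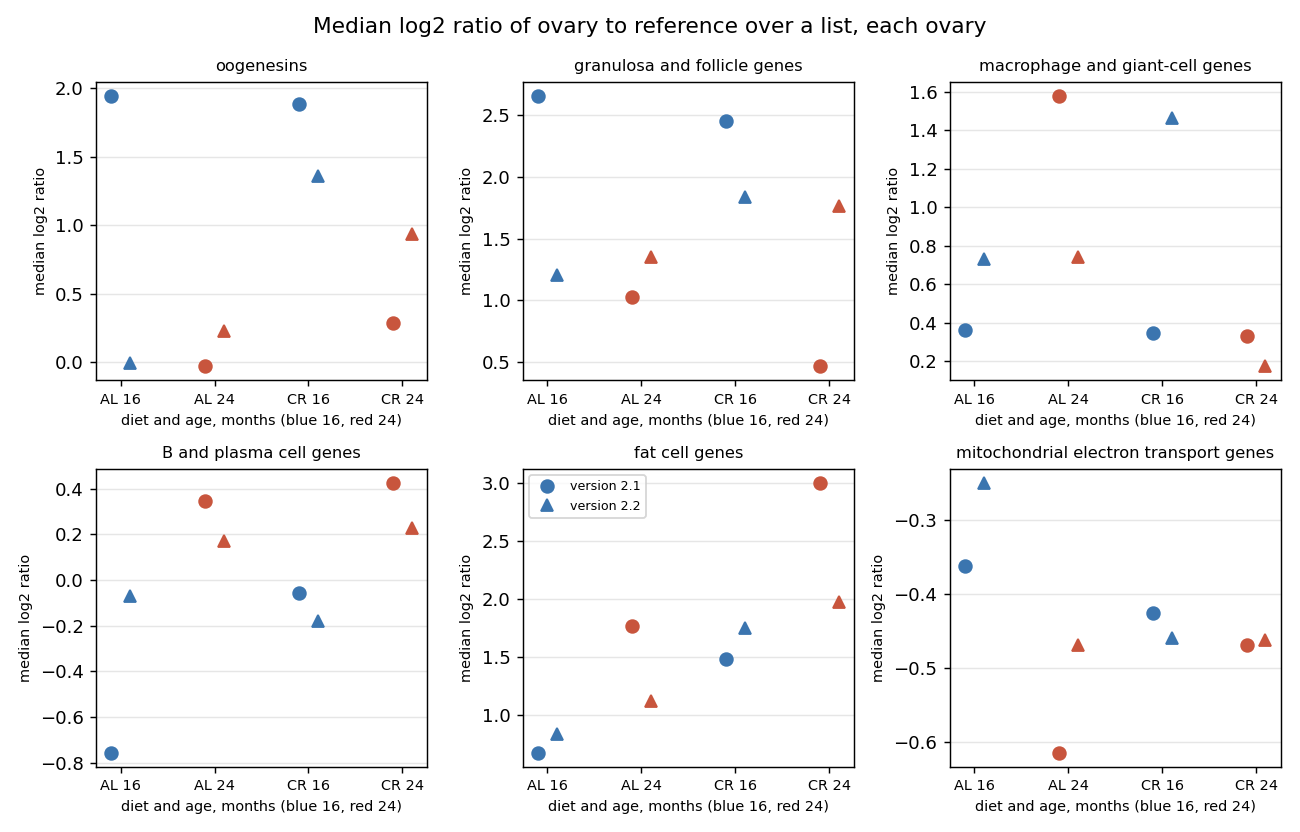
Median log2 ratio of ovary to reference over 6 gene lists (y axis of each panel) on the 8 arrays of 16 and 24 months on AL or CR diet (x axis). Blue marks are 16 months, red marks 24 months, circles version 2.1 and triangles version 2.2. On AL, AMC48 is alone in the oogenesins (1.94) and in the granulosa and follicle genes (2.66), and AMC167 in the macrophage genes (1.58), whereas both 24-month ovaries lie above both 16-month ovaries in the fat cell and B cell genes.

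Steroid-producing genes could be read from 13 of the 20 luteal and steroidogenic genes written, too few for a statement on the list. Of these 10 were lower, 2 at an unadjusted p under 0.05 (15.4%, beside 2.79% over all genes tested). The median change was -0.27 (-0.61 without AMC174 and -0.13 without AMC167). The array medians were 2.99, 3.54, 2.68 and 2.97, and Hsd3b1 was the brightest. Cyp17a1, the enzyme of theca cells that makes androgens, stood at 3.97 and 3.88 at 16 months and at 2.46 and 2.55 at 24 months. The change of -1.42 was alike in both versions, but with an SE of 0.65 from the spread of other groups its unadjusted p in limma was 0.0581. Cyp11a1, which starts steroid synthesis, overlapped between the ages, with a change of -0.28 that was above 0 with marked spots in the background fit. Of 9 hormone receptors measured out of 15, again too few, 5 were higher, with a median of 0.11 that was -0.03 without AMC174. Rxfp1, the relaxin receptor, stood at 1.61 and 1.06 before 2.55 and 2.98, a change of 1.43, and Amhr2, the receptor of anti-Müllerian hormone, at 4.23 and 4.26 before 3.68 and 3.95. These opposite differences held in both versions.

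Mitochondrial genes were lower by small amounts. Of 74 electron transport genes 64 were lower at 24 months, 21 of them at an unadjusted p under 0.05 (28.4%, beside 2.79% over all genes tested), and none was higher at that level. The median change was -0.20, with -0.19 in version 2.1 and -0.12 in version 2.2. It was -0.07 without AMC167, -0.10 without AMC131 and -0.30 without AMC174, so its size depended on single arrays while its sign did not. The array medians were -0.36 on AMC48 and -0.25 on AMC131, and -0.61 on AMC167 and -0.47 on AMC174, without overlap. Ndufc1, of complex I, had the largest difference, from 0.12 and 0.02 to -0.79 and -0.46, and Cox7a1, a subunit best known from muscle, was higher by 0.53. Of 67 mitochondrial ribosomal proteins 59 were lower, 7 at an unadjusted p under 0.05 (10.4%, beside 2.79% over all genes tested), with a median of -0.14. That list moved with AMC167: its change was -0.24 in version 2.1 and -0.01 in version 2.2, and -0.00 without AMC167. Among 74 cytosolic ribosomal proteins, 50 stood lower, and their median was -0.08, but 0.13 without AMC48. Of 43 proteasome subunits 20 were lower, with a median of 0.00 that changed sign in the scanner-normalized, deposited and Cy3-alone values. Psmb9, a subunit that interferon induces, was higher by 0.88.

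The median of the immediate-early and heat shock genes was alike in both versions, though single genes were not. Of 30 genes 23 were higher, 5 at an unadjusted p under 0.05 (16.7%, beside 2.38% over all genes tested). The median was 0.31, with 0.25 in version 2.1 and 0.28 in version 2.2. It was 0.20 without AMC174 and 0.15 with the Cy3 channel alone. The array medians were -0.71 on AMC48 and -0.69 on AMC131, and -0.64 on AMC167 and -0.46 on AMC174. AMC167 was thus only a little above the 16-month ovaries, beside an SD of that median between replicates of 0.12. The change of Hspa1a was -0.57 in version 2.1 and 0.46 in version 2.2, and that of Egr1 0.01 and 0.79. Klf2, a transcription factor that responds to blood flow, stood at 0.85 and 1.25 before 1.85 and 1.83, a change of 0.79 with an SE of 0.14 and an adjusted p of 0.703. Fos stood at -3.84 and -4.17 before -3.44 and -3.46. Of 21 cell cycle inhibitors and senescence genes 18 were higher, 3 at an unadjusted p under 0.05 (14.3%, beside 2.38% over all genes tested). The median was 0.17 (0.20 and 0.14 within the versions). That median was 0.04 without AMC48 and also without AMC174, and 0.28 without AMC131, and the array medians overlapped between the ages, with -0.55 on AMC48 and -0.38 on AMC131 before -0.47 on AMC167 and -0.35 on AMC174. Mmp3, a matrix protease of senescent cells, stood at -3.31 and -2.91 before -2.07 and -1.87. Cdkn2a and Cdkn1a, the inhibitors most used to mark senescence, had changes of 0.17 and 0.05, each with the opposite sign when spots marked as outliers entered the background fit.

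Over all genes tested 50.7% were higher at 24 months, and over those with a symbol 53.2%. Of 17 surface epithelium and mesothelium genes 15 were higher, with a median of 0.22 that was above 0 in each setting and with any array left out, array medians of 1.07, 1.09, 1.23 and 1.43, and Aldh1a1 as the brightest gene. Krt19, Krt8 and Krt18, keratins of that layer, were higher by 0.46, 0.45 and 1.00. Of 37 collagens and matrix genes 24 were higher with a median of 0.06, below 0 with the Cy3 channel alone, with marked spots in the background fit and without AMC48 or AMC174, and Lamb1, a laminin, had a change of -0.45 beside 1.34 for Postn, periostin. Of 16 blood vessel genes 7 were higher, with a median of -0.01 that was above 0 with the Cy3 channel alone, with marked spots in the background fit and without AMC131 or AMC167, array medians of 1.47, 1.52, 1.57 and 1.77, and Tagln as the brightest. Robo4, a guidance receptor of endothelium, stood at 2.80 and 3.04 before 2.34 and 2.36. Of 6 lymphatic vessel genes 5 were higher, with a median of 0.11 (0.06 without AMC167 and 0.18 without AMC174). The array medians were 0.43, 0.34, 0.52 and 0.40, and Ccl21a was the brightest. In the latter list Prox1, the transcription factor of lymphatic endothelium, had a change of -0.31, which was above 0 with the Cy3 channel alone.

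Of 29 cell cycle genes 13 were higher (median -0.03, with -0.38 in version 2.1 and 0.34 in version 2.2, and above 0 in the deposited values). Of 33 DNA repair genes 12 were higher (median -0.03), of 13 sirtuin and telomere genes 4 (median -0.09), of 30 BMP, activin and TGF-beta pathway genes 10 (median -0.07), and of 10 iron and heme genes 7 (median 0.08). The array versions opposed each other in the cell cycle, repair, sirtuin and iron lists, so no direction can be given for them. The median of the BMP, activin and TGF-beta list was -0.16 in version 2.1 and -0.004 in version 2.2. It was -0.008 without AMC167 and -0.17 without AMC174, so its size depended on single arrays. The remaining lists were measured too thinly. Of 12 oviduct and ciliated cell genes out of 17, 10 were higher (median 0.32, but -0.02 without AMC174 and 0.60 without AMC167, array medians 0.84, 0.85, 1.07 and 1.07, brightest Tppp3). Of 12 pancreatic acinar and skeletal muscle genes out of 16, 8 were higher (median 0.09, below 0 with the Cy3 channel alone and -0.00 without AMC167, array medians 0.26, 0.20, 0.24 and 0.13, brightest Mylpf). Of 14 clock genes out of 19, 9 were higher (median 0.14, below 0 with the Cy3 channel alone), and Per3 had a change of -0.81, without a value on AMC167. Of the 5 Y-chromosome genes measured out of 7, none had an unadjusted p under 0.05, and Eif2s3y stood far below the reference on each array, from -2.80 to -3.25. The Y list serves as a check of sex, and its median of -0.02 changed sign in the scanner-normalized values and with the Cy3 channel alone.

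**Figure D3:**
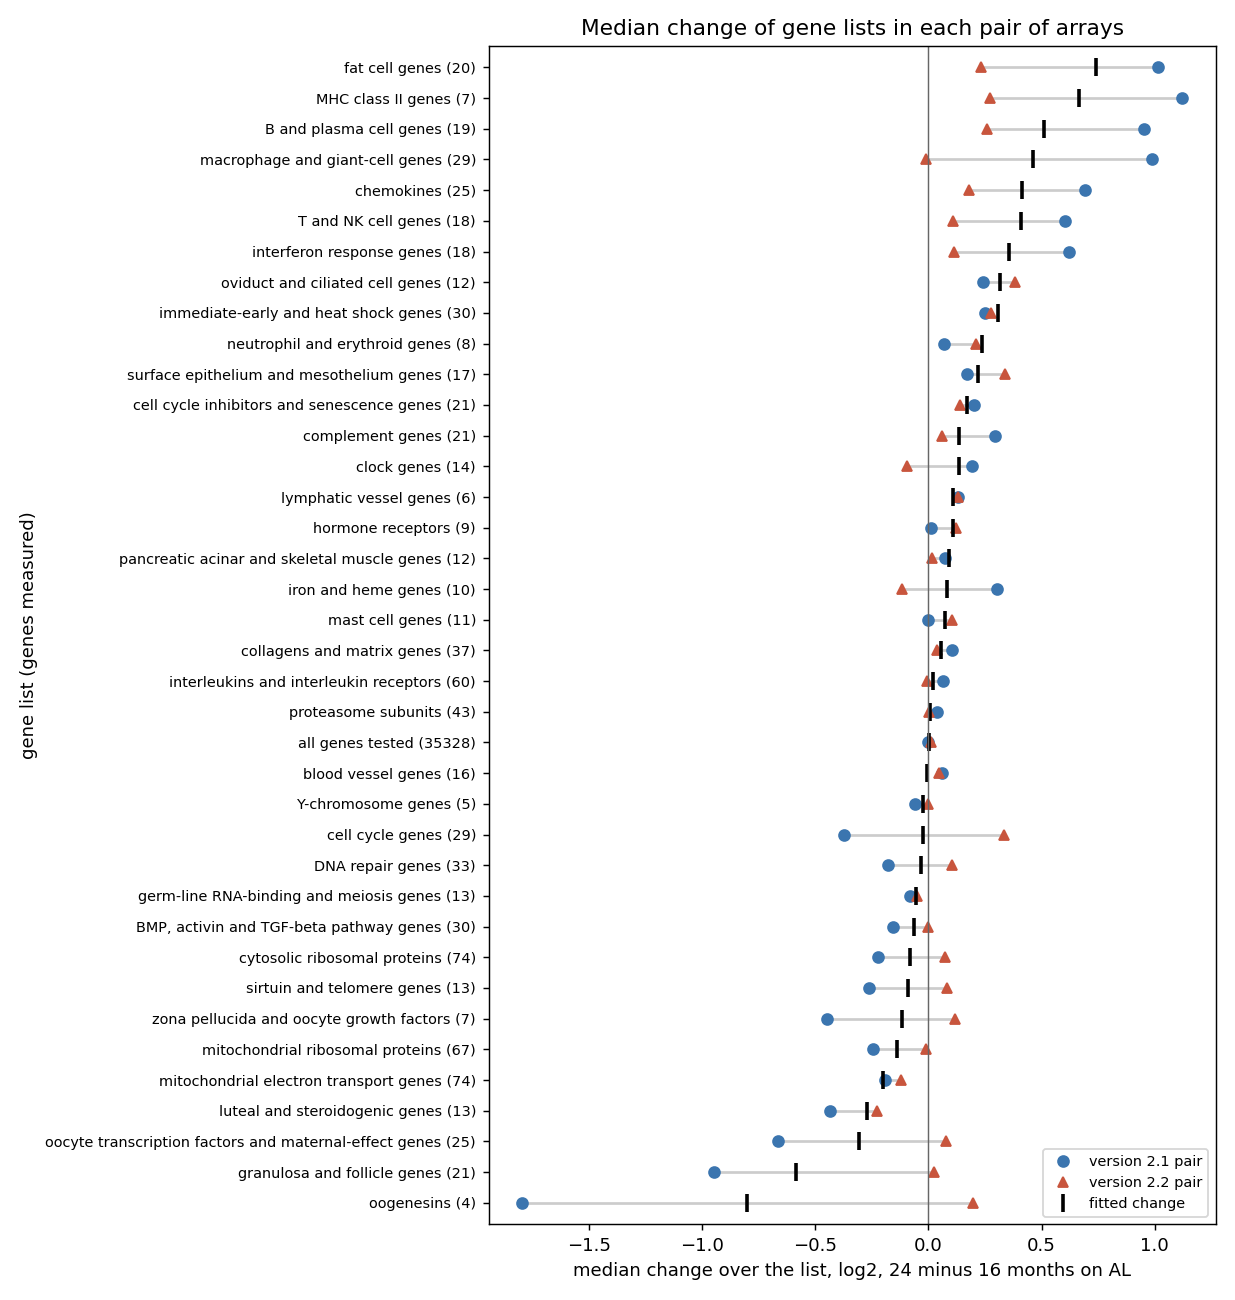
Median change from 16 to 24 months on AL (x axis, log2) over each of 37 gene lists and over all genes tested (y axis, genes measured in brackets). Circles give AMC167 minus AMC48 on version 2.1, triangles AMC174 minus AMC131 on version 2.2, and bars the fitted change. The oogenesins run from -1.80 to 0.20 and the macrophage genes from -0.01 to 0.99 between the versions, whereas the immediate-early and heat shock genes (0.25 and 0.28) and the electron transport genes (-0.19 and -0.12) have their versions close together.

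The same interval of age was measured in 4 other animals on the CR diet. The 24-month CR ovaries AMC1 and AMC25 were the least alike pair of the same age and diet. The SD of their difference was 0.38, against 0.24 to 0.30 in the other such pairs, and 2.81% of genes were more than 2-fold apart. Between the ages on CR limma called 199 of 35326 genes (0.563%), 125 higher and 74 lower at 24 months, with 3571 genes at an unadjusted p under 0.05. That count too depended on single arrays. It was 783 without AMC25, 568 without AMC1, 111 without AMC27, 78 without AMC152, and 97 without either 1-month array, AMC196 or AMC244. It was 42 with the version as a block, 17 with no version adjustment and 39 in a fit of the 8 arrays of 16 and 24 months. The count was 0 with the error model of the study's methods, with 1397 genes at an unadjusted p under 0.05. The AL and CR comparisons share no array, and across 35326 genes, which are not independent replicates, their changes had a Pearson correlation of 0.43 and a Spearman correlation of 0.18. Of the 241 genes higher on AL by the unadjusted rule, 221 (91.7%) were higher on CR, where 51.1% of all genes were. Their median change was 0.86 on AL and 0.99 on CR. Of the 138 lower genes, 119 of 137 measured (86.9%) were lower on CR, where 48.9% of all genes were. The median of these was -0.75 on AL and -0.43 on CR. The genes picked on AL thus lay on the same side of 0 on CR far more often than all genes did.

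Averaged over both diets, 129 genes (0.365%) rose and 44 (0.125%) fell by the FDR and fold of the test. The sum of 173 was 649 without AMC25, 437 without AMC131, 303 without AMC1 and 287 without AMC174. It was 21 without AMC167, 49 without AMC48, 52 without AMC27 and 91 without AMC196 or AMC244. It was 67 with the version as a block, 7 with no version adjustment, 40 in a fit of the 8 arrays of 16 and 24 months, and 0 with the error model of the study's methods, with 1473 genes at an unadjusted p under 0.05. Of the 10 genes with the largest positive change on AL, Spib (2.40, adjusted p 0.0574), 2010309G21Rik (2.54, 0.0611), Cidec (2.34, 0.0821), Pck1 (1.85, 0.0932) and Cd79b (2.43, 0.0936) rose over both diets. Of the 10 with the largest negative change Kit fell over both diets (-1.56, 0.0383). The AL values by which these genes were picked enter this average. On CR alone Kit passed (-1.92, adjusted p 0.0617), but none of those 5 did, with adjusted p of 0.125 for Spib, 0.138 for Cidec, 0.218 for Pck1, 0.156 for Cd79b and just above the limit of 0.1 for 2010309G21Rik. Adipoq, Jchain, Ccl5, Car3 and 8-30 did not pass over both diets, with adjusted p of 0.129, 0.12, 0.118, 0.128 and 0.309. The genes of lowest p that rose were Ccl11 (0.78, adjusted p 0.000813), Ces1d (1.09, 0.00107), Igkc (1.46, 0.00197), Igk (1.83, 0.00285) and Pfkfb3 (1.24, 0.00809), and Klf2 also rose (1.00, 0.0107). Those that fell were Dsel (-1.12, 0.0121), Slc40a1 (-0.69, 0.0268), Pgrmc1 (-0.66, 0.0281), Nr5a1 (-0.66, 0.0347) and Akr1c12 (-0.97, 0.0357). For all of these except Nr5a1 the CR animals gave the larger part, as in Dsel, an epimerase of matrix sugars, with -0.37 on AL and -1.88 on CR, and Slc40a1, the iron exporter, with -0.25 and -1.12. Nr5a1 had -0.68 and -0.63.

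Other genes described above passed over both diets as well: Ccl8 (1.98, adjusted p 0.0357), H2-Eb1 of MHC class II (0.96, 0.0496), Rxfp1 (1.87, 0.0611), Il16 (1.07, 0.0737) and Cd74 (1.14, 0.0847) rose, and Lamb1 (-0.60, 0.0491) and Amhr2 (-0.91, 0.0988) fell. On CR alone limma called Ccl8, H2-Eb1, Rxfp1, Lamb1 and Amhr2, but not Il16 and Cd74 (adjusted p 0.111 and 0.169). Each of these 7 genes differed in the same direction on AL in both array versions. Rxfp1, Il16, Cd74, Lamb1 and Amhr2 were named as extremes of their lists on AL, and the AL values enter the average. Their agreement on AL is therefore no test.

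A difference between the diets in the change with age was tested directly, and limma called 1 gene (0.00283%), with 1817 genes at an unadjusted p under 0.05. That gene was Ces1d, a carboxylesterase of liver and fat, at -0.17 and -0.07 before 0.16 and 0.38 on AL (AMC48, AMC131, AMC167, AMC174) and at -0.17 and -0.34 before 1.57 and 1.52 on CR (AMC27, AMC152, AMC1, AMC25). The level was higher in the older animals on both diets, and the AL change was the smaller by 1.41 units, a difference of -1.41 with an adjusted p of 0.096. The count of such genes was 63 without AMC25, 35 without AMC131, 14 without AMC48, 9 without AMC174, 4 without AMC167 or AMC1 and 2 without AMC137, AMC52 or AMC152, and it was 0 in limma without AMC196, AMC244, AMC27, AMC113 or AMC34, with 1679 to 2722 genes at an unadjusted p under 0.05. It was also 0 with the version as a block, with no version adjustment, with scanner-normalized, deposited or Cy3-alone values and with the error model of the study's methods, the last with 316 genes at that level, so Ces1d was called in only part of the settings. The difference between the diets was not tested for lists, and their medians are set side by side. The median change of the fat cell genes was 0.74 on AL and 1.20 on CR, that of the B and plasma cell genes 0.51 and 0.64, that of the T and NK cell genes 0.41 and 0.40, and that of the granulosa and follicle genes -0.58 and -0.38. In the last 2 lists AMC1 stood apart on CR. The T and NK array medians were -0.08 on AMC27 and 0.08 on AMC152 before 0.93 on AMC1 and 0.06 on AMC25, with overlap. Those of the granulosa and follicle genes were 2.46 and 1.84 before 0.46 and 1.76. In the fat cell and B cell lists both older CR ovaries lay above both younger ones, for fat at 1.49 and 1.75 before 3.00 and 1.98. The oogenesins had -0.80 on AL and -0.87 on CR, the zona pellucida and oocyte growth factors -0.12 and -0.26, and the oocyte transcription factors and maternal-effect genes -0.31 and -0.33. In each of these 3 lists both younger CR ovaries lay above both older ones in the array median, for the oogenesins at 1.89 and 1.36 on AMC27 and AMC152 before 0.29 and 0.94 on AMC1 and AMC25. The electron transport genes had -0.20 on AL and -0.01 on CR. The macrophage and giant-cell genes had 0.46 on AL and -0.71 on CR, where 4 of 29 were higher, and on CR the younger ovary AMC152 stood at a median ratio of 1.46 beside 0.35, 0.33 and 0.17 on AMC27, AMC1 and AMC25. In that list, then, a single ovary was high at each diet, the older AMC167 on AL and the younger AMC152 on CR.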

How the data were processed

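Ovary RNA and reference RNA were measured on 14 two-colour 60-mer arrays. The intensity values, deposited by the authors as scanner output per the file headers, are mean spot signals and median local backgrounds that were not normalized, with signals that the scanner software had corrected and dye-normalized beside them. The deposited tables hold log10 values. They equalled the log10 ratio of ovary to reference plus an offset near the mean log10 reference signal, to within 0.01 for 99.2% of rows in version 2.1 and 98.8% in version 2.2, with column medians from 2.99 to 3.06. The authors' columns with a missing-value code (AMC167 and AMC137) were read as a score, and that code as missing. The 14 testis columns were not used.

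Signals were corrected in limma 3.58.1 (R 4.3.3) with normexp (offset 50) and loess within each array. Control spots and spots marked as outliers were left out. On AMC48 a marked spot at -10597 after background subtraction would otherwise raise the lowest Cy3 signals of the whole array (5th percentile of log2 signal 7.55, not 6.00), so marked spots were also left out of the background fit. Spots were averaged by sequence, for 38270 probes on both versions, and version 2.1 was shifted probe by probe by the median version difference over the 6 groups with both (at least 3 needed). Of these probes 17172 had 1 symbol, from RefSeq accessions or supplementary tables, which gave the same gene for 97.2% of 2125 probes named by both, and 21098 had none. A gene was its brightest probe in Cy3, and a probe without a name counted as a gene.

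A mean for each of 7 groups was fitted with limma (7 residual degrees of freedom), and calls needed 1.5-fold and an FDR (Benjamini-Hochberg, over all genes) not above 0.1. The version shift was estimated on the same arrays but took none of these degrees of freedom. The p-values of the main fit, those on CR and over both diets included, may therefore be somewhat too small. The number of arrays limits the precision. The genes to name were set by a rule, which picked 198. It took the 10 largest positive and negative changes (as the results define them). It also took the first 3 measured genes and both extremes of each of 37 lists. Each member of a list of up to 8 genes was added. So were up to 5 called genes of lowest p in each direction, over both diets and in the diet difference. The results print only part of these genes. For lists of which less than 80% was measured values are given without a statement on the list. The members and lists were chosen with earlier results of these data known. Alternatives were scanner-normalized signals, deposited values, the Cy3 channel alone, a filter on dim probes, the methods' error variance (a gene's own, but not below a moving average over genes of like intensity, for which a window of 500 genes was chosen here), the probe of lowest p over the 7 groups where a gene has several, the version as a block, no version adjustment, the 8 AL arrays or the 8 arrays of 16 and 24 months alone, each array left out, and, chosen after seeing the data, marked spots kept in the background fit. The fit was also tested on simulated data, where an unadjusted p under 0.05 was somewhat too frequent among unchanged genes with the version shift, and not with the version as a block.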

Additional observations from a re-analysis of the deposited data

Results flagged for a closer look

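Ces1d differed between the diets by the test of the difference itself: its change from 16 to 24 months on AL minus that on CR was -1.41, from 0.38 on AL and 1.80 on CR. With the version as a block no gene was called in that test, nor with scanner-normalized, deposited or Cy3-alone values.

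In the following the older ovaries all lay on one side of the younger ones on AL and on the opposite side on CR. For the medians of lists the difference was not tested. The change in the median ratio on AL minus that on CR was 1.26 for the macrophage and giant-cell genes (0.61 on AL and -0.65 on CR) and 0.16 for the hormone receptors (0.11 and -0.06). In the macrophage genes the gaps between the ages were as small as that from 0.73 on AMC131 to 0.74 on AMC174 on AL, and from 0.35 on AMC27 to 0.33 on AMC1 on CR. AMC167 on AL and AMC152 on CR were far above the rest, and the median of the changes of the genes was 0.46 on AL, with -0.01 in version 2.2. For the hormone receptors the median on AL was -0.03 without AMC174. Their direction on CR depended on how the median was taken: the median of the changes of their genes was 0.04 on CR, that of the differences between the diets was -0.08, and only 9 of 15 genes were measured, too few for a statement on the list. For single genes the difference did not pass limma's test, with adjusted p of 0.908 for Robo4 and 0.939 for the others. It was 2.94 for Ctss (1.36 on AL and -1.58 on CR), 0.87 for Bnc1 (0.39 and -0.48) and 0.39 for Reln (0.12 and -0.27). With the signs turned it was -0.82 for Robo4 (-0.57 and 0.25) and -0.25 for Ngp (-0.02 and 0.23). With the Cy3 channel alone the change on AL had the opposite sign for Reln (-0.26) and Ngp (0.09). The change of Ctss on AL was 0.47 without AMC48, 2.25 without AMC131 and 0.21 in version 2.2.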

How the results depend on the processing

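Under each alternative other than leaving out single arrays, limma or the methods' error model called 0 genes between 24 and 16 months on AL. At an unadjusted p under 0.05 the counts were 1937 with scanner-normalized signals, 1324 of 22102 with deposited values, 2577 with the Cy3 channel alone, 1822 with the dim-probe filter, 364 with the methods' error variance, 1863 with the probe of lowest p, 1335 with the version as a block, 879 with no version adjustment, 2269 with the 8 AL arrays, 1543 with the 8 arrays of 16 and 24 months and 2455 with marked spots in the background fit. The 20 genes with the largest changes kept their sign under all alternatives, leaving out an array and the values within a version included. So did the 10 further genes picked for their test over both diets or between them. The 20 were picked for a low p and the same direction in both versions, so their sign within a version was fixed by the selection. The 10 were picked by tests that include the AL values. The agreement of both sets describes them and is no test. Of the other 168 genes that the rule picked, only part of them printed above, 78 kept their sign. So did 13 of 29 list medians. The number of these lists with a median above 0 was 16, and 14 to 20 with an array left out.

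The 241 genes higher and 138 lower at an unadjusted p under 0.05 and 1.5-fold became 399 and 298 with scanner-normalized signals, 328 and 222 with deposited values, 292 and 347 with the Cy3 channel alone, 147 and 82 with the methods' error variance, and 293 and 67 with marked spots in the background fit, an alternative chosen after seeing the data. With no version adjustment 158 were higher. The 199 genes called on CR and the 173 over both diets became 305 and 273 with deposited values, 0 and 0 with the methods' error variance (1397 and 1473 at an unadjusted p under 0.05), 42 and 67 with the version as a block, 17 and 7 with no version adjustment, and 39 and 40 with the 8 arrays of 16 and 24 months, which leave fewer degrees of freedom. The 1 gene called in the diet difference became 3 with marked spots in the background fit, and 0 with scanner-normalized signals (1776 at an unadjusted p under 0.05), deposited values (1145), the Cy3 channel alone (1489), the methods' error variance (316), the version as a block (1336), no version adjustment (881) and the 8 arrays (1604). Apart from the smaller fit, the cause was not tested.

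With each array left out in turn, the count called on AL ran from 0 to 235 (without AMC131), genes higher from 94 (without AMC48) to 681 (without AMC131), and genes lower from 100 (without AMC167) to 546 (without AMC131). The count on CR ran from 78 (without AMC152) to 783 (without AMC25), over both diets from 21 (without AMC167) to 649 (without AMC25), and in the diet difference from 0 to 63 (without AMC25). A lone array is assumed there to vary like the other groups. Counts have no value within a version, since a pair has no test. Cy3 signal over background was 1.33 to 1.74, and Ftl1 was saturated on both 24-month arrays, so its change has no size.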
